A study of Mus musculus with 16 samples.

Results

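The 10 mouse mature miRNAs mmu-miR-9-5p, mmu-miR-9-3p, mmu-miR-124-3p, mmu-miR-128-3p, mmu-miR-132-3p, mmu-miR-137-3p, mmu-miR-138-5p, mmu-miR-129-5p, mmu-miR-218-5p and mmu-miR-7a-5p, written without the prefix mmu in the following and all known to be rich in neurons, were followed in small RNA libraries of plasma extracellular vesicles (pEVs). They were chosen by name, for their known expression in the nervous system. They are 10 of 817 mature miRNA entries and of 15159 non-coding RNA (ncRNA) entries with a read. The libraries came from 8 heterozygous PS19 mice, which carry the transgene Tg(Prnp-MAPT*P301S)PS19Vle/J on a B6;C3 background, and from 8 wild-type (WT) littermates without it. In PS19 mice the mouse prion promoter drives human tau with the P301S change, so that the transgene is not limited to neurons. All mice were about 9.6 months old, both sexes were equally represented in each group, and 1 library was made per mouse from 200 µL of EDTA plasma. The pEVs were precipitated with a polymer kit, which can also bring down RNA that vesicles do not carry.

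A mature miRNA is a short RNA cut from one arm of a hairpin, named 5p or 3p, that guides Argonaute to mRNAs matching its seed, bases 2 to 8, and lowers their translation or stability. Neurons hold high levels of a small set of miRNAs that act in the choice of the neuronal fate, in dendrite growth and at the synapse. Because these miRNAs are scarce in blood cells and liver, their presence in plasma is often read as a possible trace of the nervous system, although several of them are also made in endocrine cells, muscle or other tissues. In bulk plasma, fewer vesicles from a cell type and fewer copies of a miRNA per vesicle cannot be told apart.

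The sequences below are shown because the counting of these miRNAs rests on them: reads of about this length were assigned to the entries of the table. A shared seed marks a relative, which can still differ in its other bases. They are the RefSeq mature sequences on the build GRCm38.p6, and 9 of the 10 members matched by name. The capitals mark the seed, and the 2 relatives that share a seed with a member stand at the end.
miR-9-5p: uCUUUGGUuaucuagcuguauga
miR-9-3p: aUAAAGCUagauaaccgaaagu
miR-128-3p: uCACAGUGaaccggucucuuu
miR-132-3p: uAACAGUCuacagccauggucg
miR-137-3p: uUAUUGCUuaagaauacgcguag
miR-138-5p: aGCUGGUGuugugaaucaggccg
miR-129-5p: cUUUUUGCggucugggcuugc
miR-218-5p: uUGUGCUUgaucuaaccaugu
miR-7a-5p: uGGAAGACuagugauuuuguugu
miR-7b-5p: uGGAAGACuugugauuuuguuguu
miR-212-3p: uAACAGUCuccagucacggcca

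No seed was shared between any of the 9 members with a sequence. Counted from 1 at the 5′ end, miR-7a-5p (23 nt) and miR-7b-5p (24 nt) differed at the position A10U and in the added last base, while miR-132-3p and miR-212-3p, both 22 nt, differed at 5 positions, the first being A10C. The printed members were 21 to 23 nt long, so their read counts were compared with each other without a correction for length.

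Most of the hairpins lie inside longer transcripts of the same strand. On GRCm38.p6, miR-128-3p was placed in introns of the protein-coding genes R3hdm1 (chr1:128202404-128202424, plus strand) and Arpp21 (chr9:112118644-112118664, minus strand), the latter a neuronal phosphoprotein gene. The copies of miR-218-5p lay in introns of Slit2 (chr5:48223966-48223986, plus strand) and Slit3 (chr11:35616840-35616860, plus strand), which encode axon guidance ligands. One copy of miR-7a-5p lay in an intron of Hnrnpk (chr13:58392841-58392863, minus strand), an RNA-binding protein gene used by most cells, and the other at chr7:78888295-78888317 (plus strand) lay in no other annotated gene. The miR-9 arms came from 3 loci in long non-coding genes, and miR-132-3p from 1 locus in an intron of 1700016P03Rik (chr11:75173723-75173744, plus strand). A read of a mature miRNA with several identical copies cannot be traced to one of them.

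Depth differed widely for miRNAs. Between 36220722 and 117583663 reads per library were assigned to ncRNAs, but mature miRNAs held only 51467 of them in PS19 replicate 4 and up to 2681285 in WT replicate 2, or 0.0631% to 7.40% of a library. The values analysed were read counts divided by a size factor per library (normalized counts), so that 1 read was worth from 0.389 (WT replicate 5) to 3.83 (PS19 replicate 4) normalized counts. The first letter of the library names was shared by the 8 PS19 libraries and 2 WT libraries, the other 6 WT names had other letters, and what the letter stands for was not given in the sources used here.

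All 10 miRNAs had at least 1 read, and 8 of them were found in all 16 libraries. The 10 miRNAs together held 1016 to 12752 reads per library, with a median of 4922. miR-128-3p alone, with 56869 reads summed over the 16 libraries, gave 66.6% of their reads and ranked 25th of the 817 mature miRNAs by mean normalized count. miR-7a-5p followed with 12329 reads (rank 50) and miR-9-5p with 9289 (rank 51). The middle of the order was made up of miR-218-5p with 2770 reads (rank 92), miR-129-5p with 2157 (rank 102) and miR-132-3p with 1142. miR-124-3p, which is among the most abundant miRNAs of brain tissue, had only 553 reads (rank 148), and miR-9-3p had 223 (rank 191). miR-138-5p had 70 reads in 14 libraries (rank 287) and was missing from WT replicate 4 and PS19 replicate 7. miR-137-3p had 1 read in all, in WT replicate 7, and 78 other entries of the table had exactly its values. In the 15 other libraries its 0 reads allow up to 3, which is 1.12 to 58.3 reads per 1000000 mature miRNA reads for counting error alone, so that absence was not shown.

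**Figure D1:**
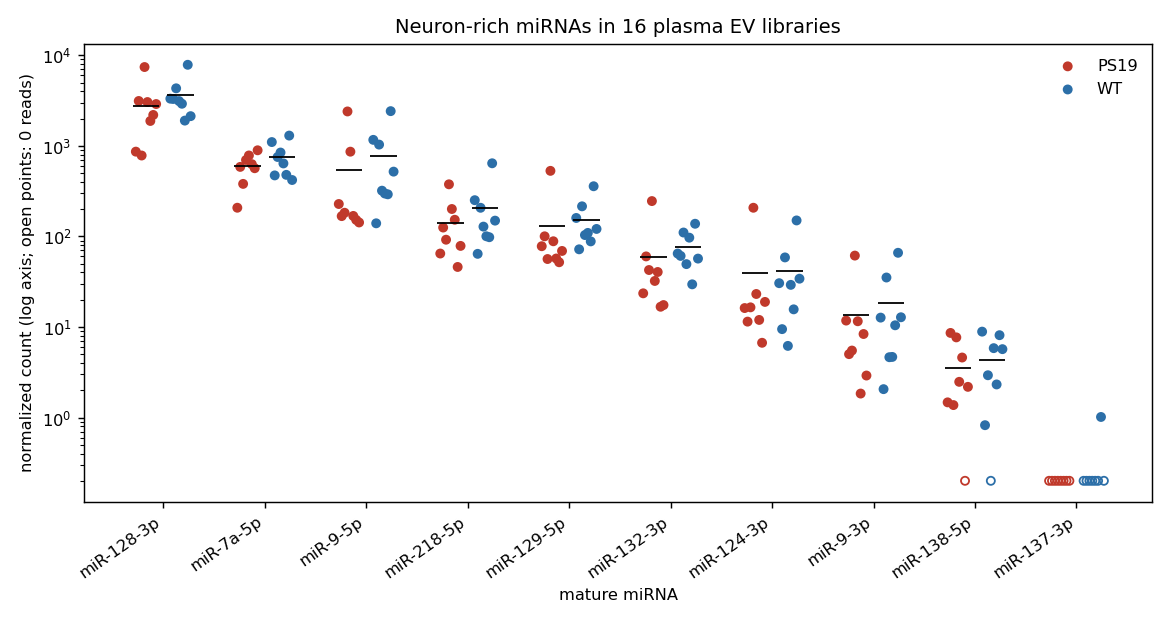
Normalized counts (log axis) of the 10 neuron-rich miRNAs in the 16 pEV libraries, 1 point per mouse, PS19 in red and WT in blue. Black lines are group means, which were not drawn for miR-137-3p with its 1 read, and open points at the bottom stand for 0 reads. miR-128-3p is the highest and miR-137-3p the lowest, and the PS19 and WT points overlap for each miRNA.

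Neighbours in this order were not all distinct. miR-128-3p stood above miR-7a-5p in 16 of 16 libraries, with a mean log2 difference of 2.13 ± 0.56 (SD, n = 16). miR-7a-5p stood above miR-9-5p in only 9 of 16 libraries, with a log2 difference of 0.65 ± 1.23 (SD, n = 16), so that these neighbours did not differ beyond their spread. The same held for miR-218-5p over miR-129-5p, higher in 10 of 16 libraries at 0.30 ± 0.53 (SD, n = 16). By contrast miR-9-5p lay above miR-218-5p, and miR-129-5p above miR-132-3p, in 16 of 16 libraries. The steps from miR-132-3p to miR-124-3p, from there to miR-9-3p and on to miR-138-5p held in 14, 15 and 13 of the 16 libraries.

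The genotype comparison asked whether the normalized counts of these miRNAs in pEV libraries differed between PS19 and WT mice. None of the 10 was called in PS19 compared to WT, and the PS19 and WT libraries overlapped for each of them. At a raw limma p of 0.05, 0 of 10 were called, beside 4.85% of all ncRNAs and 6.24% of mature miRNAs, and Benjamini-Hochberg adjusted p-values of the 10 lay between 0.829 and 0.923. DESeq2 and edgeR also called 0 of 10 at a raw p of 0.05, beside 5.42% and 15.1% of all ncRNAs. All 10 estimates, that of miR-137-3p from 1 read included, were below 0, with a median log2 fold change of -0.46, against a median of -0.01 for all ncRNAs and -0.25 for mature miRNAs, of which 597 of 817 were below 0. For calls lower in PS19 the background was 2.13% of all ncRNAs and 5.51% of mature miRNAs.

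miR-9 and miR-124 act in the making of neurons: miR-9 is made in neural progenitors and neurons, and miR-124 holds down transcripts of non-neuronal cells. miR-9-5p ran from 142 over a median of 175 to 2397 normalized counts in the 8 PS19 libraries, and from 139 over 419 to 2415 in the 8 WT libraries. The PS19 mean was 537 ± 789 (SD, n = 8) and the WT mean 772 ± 760 (SD, n = 8). The values of PS19 replicate 4 and WT replicate 7 lay far above all others, with the next PS19 library at 862 and the next WT library at 1164. The log2 fold change was -0.85 ± 0.63 (SE) with limma (p = 0.190) and an exact permutation p of 0.248.

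miR-124-3p ran from 6.68 over 16.3 to 207 normalized counts in PS19 and from 6.18 over 29.8 to 150 in WT. PS19 replicate 4 held the highest value with 54 reads and WT replicate 7 the next with 148 reads, so the order of these libraries was set by the size factors and not by the reads. The log2 fold change was -0.42 ± 0.64 (SE; limma p = 0.523, exact permutation p = 0.564), and its 95% interval from -1.74 to 0.91 leaves room for a change in either direction. miR-9-3p gave 1.84 to 61.4 normalized counts in PS19 (median 6.92) and 2.06 to 65.9 in WT (median 11.6), again with PS19 replicate 4 and WT replicate 7 at the top. Its log2 fold change was -0.46 ± 0.66 (SE; limma p = 0.493, exact permutation p = 0.527). Without WT replicate 7 the estimates were -0.07 for miR-124-3p and -0.11 for miR-9-3p, and without PS19 replicate 4 they were -0.89 and -0.86.

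Since both arms of miR-9 are cut from the same hairpins, their ratio within a library needs no scaling between libraries. The 5p arm held 94.8% to 98.9% of the miR-9 reads in PS19 and 96.5% to 98.9% in WT. The PS19 mean was 97.1% ± 1.52 (SD, n = 8) and the WT mean 97.8% ± 0.914 (SD, n = 8), and the difference of -0.69 percentage points was within the spread (two-sided exact permutation p = 0.291). Among the libraries with the PS19 letter the difference was -1.41 percentage points (exact permutation p = 0.267).

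miR-128, miR-132, miR-129, miR-137 and miR-138 are known from mature neurons, where miR-128 dampens excitability, miR-132 is induced by activity through CREB and acts in dendrite growth, miR-137 acts at the synapse and miR-138 limits the size of dendritic spines. miR-128-3p ran from 782 over 2543 to 7413 normalized counts in PS19 and from 1899 over 3205 to 7850 in WT. PS19 replicates 1, 3 and 6, with 863, 782 and 1881, lay below the lowest WT library, and PS19 replicate 4 and WT replicate 7 were again the highest. The log2 fold change was -0.57 ± 0.48 (SE; limma p = 0.248, exact permutation p = 0.202), and it was -0.38 without PS19 replicate 1 and -0.36 without PS19 replicate 3.

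The miR-128-3p entry was not independent of others in the table. The entries mmu_circ_0000075, mmu_circ_0008145, mmu_circ_0008146 and mmu_circ_0008144, listed as circular RNAs, followed it over the 16 libraries and held 53313 to 53322 reads, 93.7% to 93.8% of its 56869. In no library did any of them reach the count of miR-128-3p. Whether the same reads were counted under both names was not tested.

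miR-132-3p gave 16.7 to 245 normalized counts in PS19 (median 36.3) and 29.5 to 138 in WT (median 62.8). Outside PS19 replicate 4, the highest PS19 library reached 60.1, below the WT median. The log2 fold change of -0.78 ± 0.52 (SE) had the smallest limma p of the 10 miRNAs (p = 0.147, exact permutation p = 0.139). miR-129-5p gave 51.8 to 529 in PS19 (median 73.5) and 72.0 to 358 in WT (median 115), with a log2 fold change of -0.58 ± 0.50 (SE; limma p = 0.259, exact permutation p = 0.240).

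miR-138-5p, at 0 to 12 reads per PS19 library and 0 to 15 per WT library, was the sparsest of the 9 members with more than 1 read. Its log2 fold change was -0.21 ± 0.60 (SE; limma p = 0.726, exact permutation p = 0.708), with a 95% interval from -1.44 to 1.02. For miR-137-3p the fitted value rests on a single read and is not described as a fold change.

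miR-218 is typical of motor neurons, and miR-7 is shared by neurons and endocrine cells such as those of the pancreatic islet. miR-218-5p ran from 46.0 over 109 to 376 normalized counts in PS19 and from 64.2 over 139 to 642 in WT. Its highest value came from WT replicate 7, with 633 reads, and the groups overlapped over most of their range. The log2 fold change was -0.46 ± 0.51 (SE; limma p = 0.381, exact permutation p = 0.373), and it was -0.17 without WT replicate 7, -0.27 without PS19 replicate 7 and -0.70 without PS19 replicate 4.

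miR-7a-5p ran from 207 over a median of 606 to 893 normalized counts in PS19 and from 419 over 696 to 1297 in WT. PS19 replicate 4, with 182 reads, lay above the PS19 median but below replicates 5 and 8, the latter the highest. On this scale its coefficient of variation over the 16 libraries was 41.0%, against 61.5% to 140% for the other 7 miRNAs with a read in each library. Scaled to all assigned reads that order did not hold, with 77.0% for miR-7a-5p, above miR-218-5p (68.4%) and miR-129-5p (72.8%). The log2 fold change was -0.35 ± 0.43 (SE; limma p = 0.427, exact permutation p = 0.301), and it was -0.15 without PS19 replicate 1 and -0.22 without WT replicate 7.

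**Figure D2:**
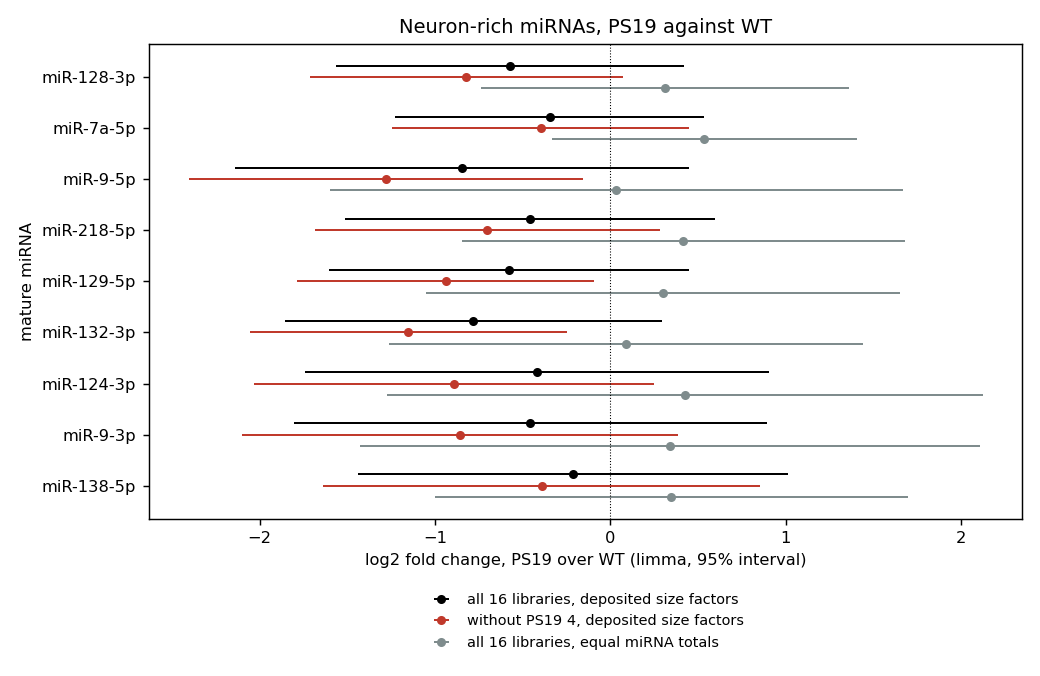
Log2 fold changes of PS19 over WT for 9 neuron-rich miRNAs, with 95% intervals from limma, for the deposited size factors (black), without PS19 replicate 4 (red) and with equal miRNA totals per library (grey). The black estimates lie below 0 with intervals that include 0, the red intervals of miR-9-5p, miR-129-5p and miR-132-3p end below 0, and the grey estimates lie above 0.

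This result turned on 1 library and on the scaling. Without PS19 replicate 4, the library with the fewest miRNA reads, 3 of the 10 miRNAs were called lower in PS19 at a raw p of 0.05, beside 2.18% of all ncRNAs and 5.27% of mature miRNAs called lower in the same fit. miR-132-3p then had a log2 fold change of -1.15 ± 0.44 (SE; limma p = 0.0146, exact permutation p = 0.00808), with PS19 at 33.3 ± 15.7 (SD, n = 7) and WT at 75.8 ± 35.9 (SD, n = 8) normalized counts. miR-129-5p stood at -0.94 ± 0.41 (SE; limma p = 0.0309, exact permutation p = 0.00606), and miR-9-5p at -1.28 ± 0.55 (SE; limma p = 0.0276, exact permutation p = 0.0536). None of the 10 passed Benjamini-Hochberg adjustment in limma, where the adjusted p of these 3 was 0.807. WT replicate 7, the WT library highest for each of the 3, stayed in this fit, and no fit left out both libraries. The p-values do not cover the choice of the library left out. Leaving out any other single library gave 0 calls. Without WT replicate 7 the median log2 fold change was -0.22, with -0.53 for miR-9-5p and -0.38 for miR-129-5p.

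The lower level was not kept when the libraries were set to equal miRNA totals. On that scale 0 of 10 were called, beside 7.46% of all ncRNAs, and 9 of the 10 estimates lay above 0, with a median log2 fold change of 0.33, while the medians moved from -0.01 to 0.29 for all ncRNAs and from -0.25 to 0.00 for mature miRNAs. Without PS19 replicate 4 and with equal miRNA totals, 7 of the 10 were below 0 and 0 of 10 were called by limma at a raw p of 0.05, beside 7.48% of all ncRNAs. The log2 fold changes were then -0.41 for miR-132-3p (exact permutation p = 0.413), -0.19 for miR-129-5p (exact permutation p = 0.712) and -0.53 for miR-9-5p (exact permutation p = 0.480). Scaled to all assigned reads, all 10 estimates were below 0 with a median of -0.71, against -0.11 for all ncRNAs and -0.33 for mature miRNAs, and 0 of 10 were called by limma, beside 2.91% of all ncRNAs.

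The letter of the library names gave another split. Among the 10 libraries that begin with the PS19 letter, 8 PS19 and 2 WT, 9 of the miRNAs had a read, and 6 estimates lay above 0 and 3 below, with a median log2 fold change of 0.34. The WT values there were 139 and 320 normalized counts for miR-9-5p and 9.46 and 6.18 for miR-124-3p, the latter the lowest of the WT libraries. miR-128-3p (-0.54 ± 0.91 SE), miR-132-3p (-0.46 ± 0.96 SE) and miR-7a-5p (-0.20 ± 0.84 SE) were the miRNAs with an estimate below 0. With 2 WT libraries the exact permutation p cannot fall below 1 in 45, and 0 of 9 were called by limma at a raw p of 0.05, beside 4.62% of all ncRNAs. For the 6 WT libraries with other letters, letter and genotype cannot be told apart.

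As a share of all mature miRNA reads, the 10 neuron-rich miRNAs held 0.478% to 6.05% in PS19 (median 0.732%) and 0.373% to 1.93% in WT (median 0.649%). The 6.05% of PS19 replicate 4, with an exact (Clopper-Pearson) 95% interval of 5.84% to 6.26% for counting error, stood far above the next library, WT replicate 7 with 1.93% (1.90% to 1.96%). Without PS19 replicate 4 the mean was 0.765% ± 0.335 (SD, n = 7) in PS19, against 0.835% ± 0.519 (SD, n = 8) in WT, a difference smaller than either SD.

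**Figure D3:**
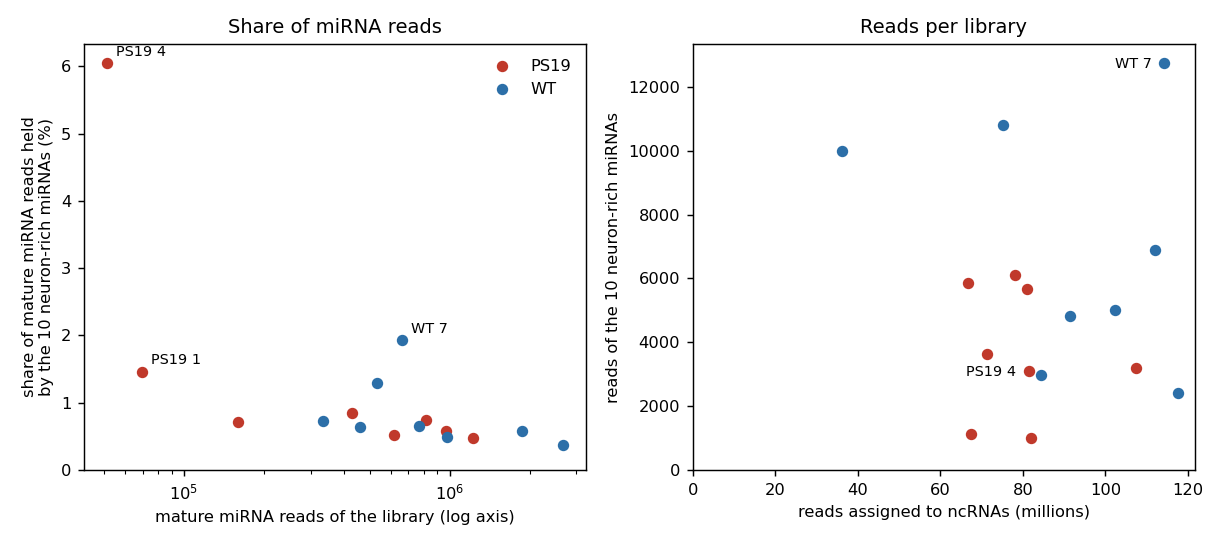
Left, the share of mature miRNA reads held by the 10 neuron-rich miRNAs against the number of mature miRNA reads of the library (log axis). Right, their reads against all assigned reads. PS19 is red and WT blue, with 1 point per library. PS19 replicate 4 has the highest share (6.05%) and the fewest mature miRNA reads (51467), and its 3112 neuron-rich reads lie within the range of the other PS19 libraries.

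The high values of PS19 replicate 4 depended on the denominator. Per 1000000 mature miRNA reads this library held the highest level of all 9 members with more than 1 read, such as 12144 for miR-9-5p and 37558 for miR-128-3p. Its reads of the 10 miRNAs, 3112, lay within the range of the other PS19 libraries, 1016 to 6113. Per 1000000 assigned reads it was highest for none of the 9, and WT replicates 2, 5 and 7 took the top places. WT replicate 7, in contrast, had the most reads of these miRNAs (12752) and, per 1000000 assigned reads, the highest level of miR-9-5p, miR-9-3p, miR-124-3p and miR-218-5p.

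The miRNAs moved together over the libraries in groups. The distance between profiles was taken as the root mean square difference of log2(normalized count + 1), each centred on its own mean, over the 16 libraries, among the 179 mature miRNAs with a read in all of them. miR-9-5p, miR-9-3p and miR-124-3p had the same 2 nearest profiles, miR-383-5p and miR-219a-2-3p, at distances of 0.51 to 0.64, against medians of 1.66 to 1.79 over the 178 candidates for each. The nearest profile of miR-132-3p was miR-129-5p (0.52), followed by miR-485-5p (0.55). miR-129-5p lay nearest to miR-7b-5p (0.36) and miR-219a-2-3p (0.43).

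The other members had neighbours of other kinds. miR-218-5p was nearest to miR-379-5p (0.42) and miR-127-3p (0.49), both of the imprinted Dlk1-Dio3 region. miR-128-3p was nearest to miR-125b-5p (0.35) and miR-125a-5p (0.40), and miR-7a-5p to let-7g-5p (0.37) and miR-30e-3p (0.38), miRNAs made in most tissues. Thus 5 of 8 members had another member, a relative or a listed nervous-system miRNA among their 2 nearest profiles. On those lists were 17 of the 179 candidates, and each member had 2 chances of a match. The count was 5 of 8 as well with library totals, with mature miRNA totals and without PS19 replicate 4. All these profiles share the same libraries and size factors, and the distances are given as a description only.

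**Figure D4:**
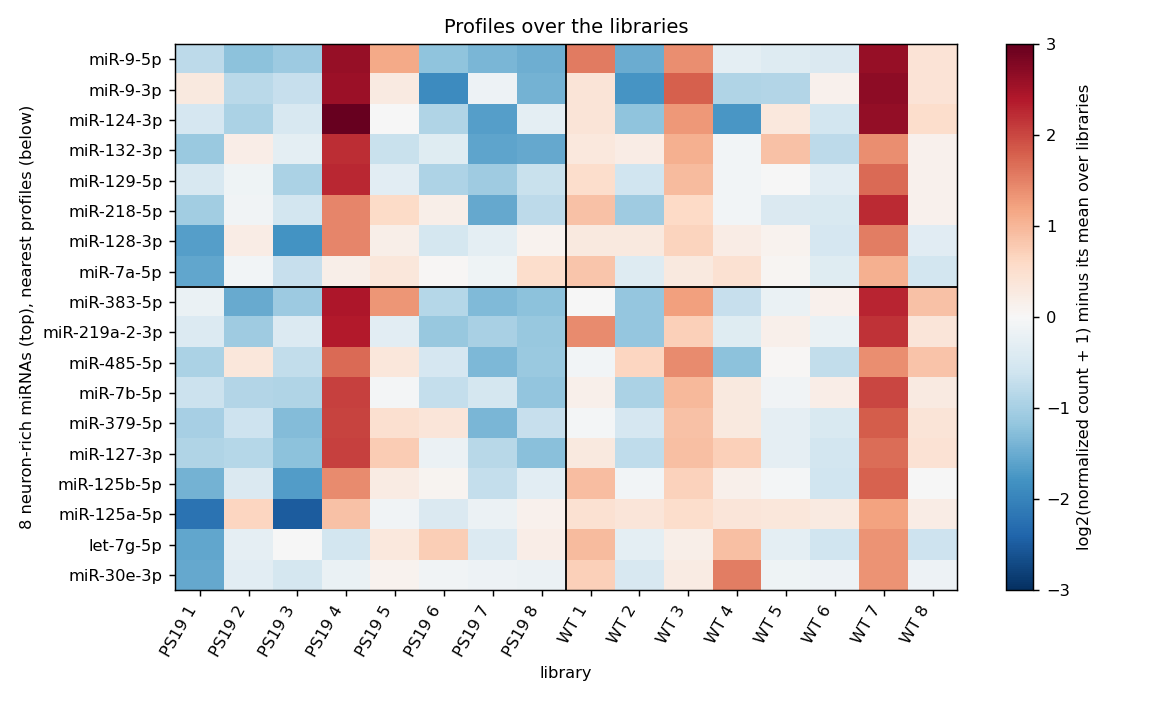
Profiles of 8 neuron-rich miRNAs (above the line) and of their nearest miRNAs (below it) over the 16 libraries, as log2(normalized count + 1) minus the mean of each row. Red is above and blue below the mean. PS19 replicate 4 and WT replicate 7 are red in most rows, and the rows of miR-7a-5p, let-7g-5p and miR-30e-3p are pale in PS19 replicate 4.

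Other products of the same hairpins and families ranged, where listed, from 2 to 2172 reads, the latter more than miR-129-5p, miR-132-3p, miR-124-3p or miR-9-3p had. Of 17 mature relatives looked up, 13 were listed with a read, 8 of them with at least 10 reads. At the same limma threshold 0 of 13 were called, beside 4.85% of all ncRNAs and 6.24% of mature miRNAs. Their median log2 fold change was -0.24, beside -0.25 for all mature miRNAs. miR-7b-5p, the seed mate of miR-7a-5p, had 2172 reads and a log2 fold change of -0.71 ± 0.50 (SE; limma p = 0.168, exact permutation p = 0.160). miR-132-5p, the other arm of the miR-132 hairpin, had 394 reads and a log2 fold change of -1.005 ± 0.64 (SE), with a PS19 mean of 21.9 ± 34.5 (SD, n = 8) and a WT mean of 26.3 ± 18.6 (SD, n = 8) normalized counts (limma p = 0.127, exact permutation p = 0.164). miR-212-5p, from the hairpin beside it, had 277 reads and a log2 fold change of -0.84 ± 0.59 (SE; limma p = 0.165, exact permutation p = 0.174). Each of these had its PS19 maximum in PS19 replicate 4.

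Hairpin entries were listed for 18 of 23 names. Of the names without a match, mir-124a-1, mir-124a-2 and mir-124a-3 are older names of listed hairpins, which leaves mir-137 and mir-138-2. Which part of the hairpin their reads cover was not given in the sources used here. Of these, 1 was called lower in PS19, mir-7b with 11 reads in all (log2 fold change -0.62 ± 0.30 SE, limma p = 0.0475, exact permutation p = 0.0443), beside the 2.13% of all ncRNAs called lower. Its Benjamini-Hochberg adjusted limma p was 0.829, and among the libraries with the PS19 letter it was at -0.47 ± 0.36 (SE) and not called. The most abundant was mir-128-1 with 360 reads and -0.59 ± 0.48 (SE; limma p = 0.230, exact permutation p = 0.140). The hairpins of miR-7a-5p, named after their values were seen, were not called by limma but had the smallest permutation p-values of the hairpin entries. mir-7a-1, with 73 reads, was at -0.86 ± 0.48 (SE; limma p = 0.0839, exact permutation p = 0.0115), and mir-7a-2, with 74 reads, at -0.81 ± 0.48 (SE; limma p = 0.108, exact permutation p = 0.0214). These 2 entries had 55 reads each in WT and 18 and 19 reads in PS19, with nearly the same values, so they are not 2 independent results. The groups overlapped for both, and among the libraries with the PS19 letter they were at -0.80 ± 0.97 (SE) and -0.75 ± 0.97 (SE) and not called. The entries mir-124-1, mir-124-2 and mir-124-3 had identical values with 290 reads each, and so did mir-9-1 and mir-9-2 with 55 reads each, so these copies count as 1 measurement.

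Among 17 other miRNAs known from the nervous system, 16 were listed, 13 with an estimate below 0, with a median log2 fold change of -0.19. The 1 call was miR-346-5p, lower in PS19 with a log2 fold change of -1.34 ± 0.58 (SE; limma p = 0.0280, exact permutation p = 0.0190), from 7 reads in PS19 and 35 in WT. This 1 call among 16 stands beside 5.51% of mature miRNAs called lower. Its Benjamini-Hochberg adjusted limma p was 0.829. Among the libraries with the PS19 letter its log2 fold change was -0.20 ± 0.77 (SE), with 0.411 and 1.54 normalized counts in the 2 WT libraries, and it was not called. The most abundant were miR-146a-5p, made by microglia and other immune cells, with 75985 reads and -0.19 ± 0.55 (SE; limma p = 0.737, exact permutation p = 0.751), and miR-29a-3p, high in astrocytes, with 8992 reads and -0.17 ± 0.51 (SE; limma p = 0.744, exact permutation p = 0.734). miR-219a-2-3p, a product of the oligodendrocyte miR-219 hairpin, had 1426 reads and -0.77 ± 0.55 (SE; limma p = 0.175, exact permutation p = 0.193), while among the libraries with the PS19 letter it was at 0.38 ± 0.95 (SE). The other oligodendrocyte miRNAs of the list were hardly detected. miR-219a-5p had 7 reads, all in PS19 replicate 5, and miR-338-3p had 2 reads, both in WT replicate 3.

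Markers of liver outnumbered the neuron-rich set in 16 of 16 libraries, those of red cells in 15 and those of muscle in 14, and the markers of each other source stayed below it in 16 of 16. Summed over libraries of unequal miRNA depth, the 10 neuron-rich miRNAs had 85403 reads, against 2118026 for the liver markers, 784758 for red cells and 397393 for muscle, but 34534 for endothelium, 33679 for endocrine cells, 2910 for lymphocytes and 1861 for platelets and myeloid cells. The sets differ in size, with 10 neuron-rich miRNAs against 2 endothelial markers and 1 endocrine marker. Of the 85403 reads, 56869 were miR-128-3p, and the place above endothelium and endocrine cells in summed reads rests on that miRNA. The 18 markers of red cells, platelets and myeloid cells, endothelium, liver, muscle, lymphocytes and endocrine cells all had reads and held 10.6% to 30.0% of mature miRNA reads in PS19 and 14.0% to 35.3% in WT. Liver miR-122-5p had 1888413 reads (rank 2), muscle miR-1a-3p 252112, red cell miR-451a 45542, endocrine miR-375-3p 33679 and endothelial miR-126a-3p 33462. Lymphocyte miR-150-5p had 2910 reads and platelet and myeloid miR-223-3p had 769, and none of these defining markers was at 0 in any library.

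In PS19 compared to WT, 2 of the 18 markers were called lower at the same limma threshold, miR-122-5p (log2 fold change -1.57 ± 0.72 SE, p = 0.0387, exact permutation p = 0.0805) and red cell miR-486a-5p (-1.41 ± 0.65 SE, p = 0.0410, exact permutation p = 0.0791). Muscle miR-206-3p was called higher (1.79 ± 0.81 SE, limma p = 0.0361, exact permutation p = 0.0903), while the defining muscle marker miR-1a-3p was at -0.02 ± 0.77 (SE; exact permutation p = 0.979) and miR-133a-3p at 1.16 ± 0.82 (SE; limma p = 0.168, exact permutation p = 0.258). Among the libraries with the PS19 letter, miR-486a-5p (-2.44 ± 1.15 SE) and the defining red cell marker miR-451a (-2.01 ± 0.94 SE) were called lower by limma. In that fit 4.62% of all ncRNAs were called. miR-122-5p (-1.51 ± 1.20 SE) and miR-206-3p (1.03 ± 1.35 SE) were not called there, with miR-1a-3p at -0.79 ± 1.30 (SE) and miR-133a-3p at -0.64 ± 1.22 (SE). Over all 16 libraries miR-451a was at -0.67 ± 0.56 (SE; limma p = 0.238, exact permutation p = 0.261) and not called. The background over all 16 libraries was 5.51% of mature miRNAs called lower and 6.24% called in either direction. Endothelial miR-126a-3p, not called by limma, was at -0.75 ± 0.42 (SE; limma p = 0.0849) with an exact permutation p of 0.0169. The median over the 18 was -0.64, beside -0.46 for the neuron-rich miRNAs. In WT replicate 7 the 18 markers held 14.0% of mature miRNA reads, the lowest WT share, and in PS19 replicate 4 they held 26.9%, next to the highest PS19 share. In PS19 replicate 4 miR-451a was at 387 and miR-375-3p at 38.3 normalized counts, the lowest of all libraries, while miR-122-5p was at 46126, above the PS19 median of 24294. The part of these sources in the neuron-rich values was not tested.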

How the data were processed

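Plasma EV small RNA libraries of 8 PS19 and 8 WT mice were compared, 1 per mouse. The authors aligned reads with STAR 2.5.3a (mm10), assigned them with COMPSRA and deposited signal values, counts divided by DESeq2 size factors. Deposited columns with log2 fold changes, a score (the test statistic) and p-values of the authors' own comparison were not used. Whole reads were recovered from each library's smallest value, and 100.0% of values were whole within 1e-06.

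log2(value + 1) was tested with limma 3.58.1 (lmFit, eBayes with trend) over all 15159 ncRNAs with a read; the thresholds were 0.05 for the raw p, as in the study, and for Benjamini-Hochberg adjusted p-values. Two-sided exact permutation tests used all 12870 splits (6435 without 1 library). limma was also run on simulated counts, and the outcome is not reported here. Alternatives were DESeq2 1.42.0 and edgeR 4.0.16 on the reads, other scalings, filters and pseudocounts, a replicate block, left-out libraries, and libraries of 1 letter. Leaving out PS19 replicate 4 together with another setting, other settings for the profiles, the arm share within 1 letter and the share of miRNA reads without that library were added after seeing the data. Members, lists and naming rules (all members, the 3 most abundant and any called relatives, 2 nearest profiles) were chosen with earlier results of these data known. Groups came from the labels. Intervals and floors (3 reads) cover counting error only, as no molecular identifiers were used. R 4.3.3 and Python 3.11.15 were used.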

Additional observations from a re-analysis of the deposited data

Results flagged for a closer look

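In 13 of the 21 groups of 8 libraries examined, 1 library lay farther from the others than Dixon's 95% criterion allows. For normally distributed values chance flags about 1 in 20 groups. The values were used here without a log and have long upper tails, so that rate does not hold for them. The flag of miR-137-3p was fixed by its single read, since no other WT library had one. These 21 groups are not independent, since they share the same libraries and size factors. PS19 replicate 4 was the library in 8 of the 13. It stood at 2397 normalized counts for miR-9-5p, 61.4 for miR-9-3p, 207 for miR-124-3p, 7413 for miR-128-3p, 245 for miR-132-3p, 529 for miR-129-5p and 376 for miR-218-5p, and the 10 neuron-rich miRNAs held 6.05% of its mature miRNA reads. The next PS19 libraries were at 862, 11.8, 23.1, 3127, 60.1, 100.2 and 201 normalized counts and at 1.46%. In this library 1 read was worth 3.83 normalized counts, the most of all 16, and mature miRNAs held 0.0631% of its reads, the least. WT replicate 7 was the library in the other 5, at 2415 for miR-9-5p, 150.0 for miR-124-3p, 7850 for miR-128-3p, 642 for miR-218-5p and, from its single read, 1.01 for miR-137-3p. Its 1 read was worth 1.01 normalized counts. The part of size factor and depth in these values was not tested.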

How the results depend on the processing

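At a raw p of 0.05, 0 of 10 miRNAs were called under DESeq2, edgeR, library totals, miRNA totals and the other pseudocount, 0 of the 9 tested with a mean of at least 1, 1 entry per identical set or the PS19 letter, and 0 of the 8 with a mean of at least 10, beside 2.91% to 15.1% of all ncRNAs tested. Leaving out each library gave 0 to 3 calls, the 3 without PS19 replicate 4. With the replicate number as a block 0 were called, with a smallest limma p of 0.187. The numbers name different mice, and same-numbered libraries did not deviate together (correlations from -0.18 to 0.47, 2 of 8 above 0.1, 1 PS19 library closest to its own number).

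The direction turned with equal miRNA totals, at log2 fold changes of 0.035 (miR-9-5p), 0.34 (miR-9-3p), 0.43 (miR-124-3p), 0.31 (miR-128-3p), 0.091 (miR-132-3p), 0.35 (miR-138-5p), 0.30 (miR-129-5p), 0.42 (miR-218-5p) and 0.54 (miR-7a-5p), and without PS19 replicate 4 as well at 0.031 (miR-138-5p), 0.044 (miR-218-5p) and 0.35 (miR-7a-5p). With the PS19 letter it turned at 0.47 (miR-9-5p), 1.11 (miR-9-3p), 1.27 (miR-124-3p), 1.43 (miR-138-5p), 0.057 (miR-129-5p) and 0.34 (miR-218-5p), and without PS19 replicate 4 as well at 0.032 (miR-9-5p), 0.71 (miR-9-3p), 0.80 (miR-124-3p), 1.25 (miR-138-5p) and 0.10 (miR-218-5p). Leaving out each library moved miR-138-5p from -0.51 (without WT replicate 4) to 0.054 (without PS19 replicate 7), and, from 1 read, miR-137-3p turned with DESeq2 (0.050). The cause was not tested.

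With a minimum of 10 reads, miR-9-3p was found in 8 libraries, miR-138-5p in 2 and miR-137-3p in 0, and with 3 reads miR-137-3p in 0. Depth limits the rarest: 3 reads are worth 1.17 to 11.5 normalized counts.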
